A study of Mus musculus with 15 samples.

Results

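The receptor genes described here are the 36 genes, of 11201 in the deposited table, whose symbol is Cnr2 or begins with Gpr, P2ry, P2rx, Adora, Ccr, Cxcr, S1pr or Ptger followed by a digit. The name pattern also covered Fpr, the formyl peptide receptors, of which there was no row. By their known roles the genes were placed in 12 classes, which include 2 P2Y, 2 P2X and 2 adenosine receptors, 2 CC and 2 CXC chemokine receptors, 1 sphingosine 1-phosphate receptor, 2 prostaglandin E2 receptors and 1 cannabinoid receptor. The remaining classes were 2 adhesion receptors, 5 Gpr receptors with a known ligand, 7 orphan Gpr receptors, and 8 genes that carry the Gpr name but are not known as classical surface receptors. That last class goes against a description of the whole set as surface receptors. Counts below are over all 36 genes, with those of the 28 surface receptors beside the first of them.

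RNA sequencing was done on microglia derived from mouse embryonic stem cells (ESdM in the labels), a laboratory stand-in for the immune cells of the brain, made from C57BL/6-ATCC embryonic stem cells and kept in N2 medium. For 24 h, cells received lipopolysaccharide and interferon gamma together (LPS+IFNg, 500 ng/ml and 20 ng/ml, 3 libraries), interleukin 4 (IL4, 100 U/ml, 3 libraries) or transforming growth factor beta (TGFb, 50 ng/ml, 3 libraries), and the cells of 6 libraries were left untreated. All 4 groups share that cell source and medium, and the labels name no genetic change in any of them. Whether each library stems from its own culture is not in the labels. The p-values therefore reflect how far these 15 libraries scatter, and that scatter may be purely technical.

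Most of these receptors are proteins that cross the membrane many times, bind a ligand outside the cell and signal through heterotrimeric G proteins, while the P2X receptors are ion channels that ATP opens. Damaged or active cells release ATP, UDP and adenosine, chemokines form gradients that cells follow, and lipids such as prostaglandin E2, sphingosine 1-phosphate, oxysterols and endocannabinoids act at short range. Microglia are known to use these receptors to sense injury, to move their processes and to set their inflammatory state, and purinergic receptors are among the genes by which microglia are recognised.

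Whole reads recovered from the table summed to 2682564 to 18676181 per library, with a median of 7589049. Values below are normalized read counts, a value of 1 being the floor the authors set, and untreated values are the lowest, the median and the highest of 6 libraries. Replicate 3 of LPS+IFNg stood apart from the other libraries of its group: a chi-square over genes, divided by its degrees of freedom, came to 25.95 with replicate 1 and to 26.54 with replicate 2. The pair of replicates 1 and 2 gave 2.88, and pairs within the other groups gave 1.42 to 7.57. Many results that rest on it are given with and without it. Of 19 microglia and macrophage markers 14 were in the table, among them Csf1r and Trem2, which were at 1581 and 937 or above in every library. The identity markers Tmem119, Cx3cr1 and Olfml3 had means of 82.3, 39.5 and 239 with TGFb, against 7.62, 2.60 and 1.01, all low, in untreated cells. None of the markers listed for embryonic stem cells, neurons, fibroblasts, or T, B and NK cells was in the table, and genes that are not in it were not analysed here. Of 6 astrocyte markers 1 was, Aldh1l1, at 51.9 to 75.7 with LPS+IFNg, 45.8 to 61.6 with IL4 and 38.4 to 43.0 with TGFb, against 19.6 to 38.3 in untreated libraries. Of 5 endothelial markers 1 was, Pecam1, at 6.02 to 15.8 with LPS+IFNg, against 1 to 1.89 in untreated libraries. Their part in the results was not tested. P2ry12 and P2ry13, receptors by which microglia are often recognised, were not analysed here.

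The receptor genes differed between the stimuli in how many were called and in which direction. With LPS+IFNg, most receptor genes that passed the test were lower: Gpr183, Ccr1, Gpr176, Cxcr4 and Ptger1 fell, as did the lysosomal gene Gpr155, while the adenosine receptor gene Adora2b and the fatty acid receptor gene Gpr84 rose. With TGFb most were higher, and the largest increases were in Gpr56, Cxcr2, P2ry6, Ptger4 and Cxcr4. IL4 moved fewer, with fitted increases in Cnr2, Gpr160, Gpr155 and Gpr183 and a decrease in Ccr1. Of these IL4 calls, those of Gpr160, Gpr183 and Ccr1 were lost when certain single IL4 libraries were left out. Gpr155 stayed called without any single IL4 library, as did P2rx4, S1pr2 and Gpr162, whose increases were smaller. Cnr2, Gpr160, Gpr56 and Cxcr2 entered the test only through the group in which they were high, and Ccr1 only through untreated cells. In bulk samples, a change in a gene's level and a change in the share of cells that carry it cannot be told apart.

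Against untreated cells, limma called 25 of the 36 receptor genes with LPS+IFNg at an adjusted p below 0.05, 8 higher and 17 lower, or 69.4% of them, where it called 58.9% of all 11138 tested genes (29.5% higher and 29.4% lower). With IL4 it called 11 receptor genes, 9 higher and 2 lower, or 30.6%, against 17.2% of all tested genes (9.89% higher and 7.33% lower). With TGFb it called 19, 15 higher and 4 lower, or 52.8%, against 47.5% of all tested genes (24.1% higher and 23.4% lower). Of the 28 surface receptors alone, 7 were higher and 14 lower with LPS+IFNg, 7 and 2 with IL4, and 11 and 3 with TGFb. The count of calls with LPS+IFNg and with TGFb was thus not far from the background, and the directions were less even than among all genes.

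On the log2(value + 1) scale, on which all fold changes here are given and which makes changes of weakly expressed genes look smaller, the median log2 fold change of the receptor genes was -0.31 with LPS+IFNg, 0.17 with IL4 and 0.33 with TGFb. The same medians over all tested genes were 0.004, 0.001 and 0.014. With LPS+IFNg 2 receptor genes were called higher and 9 lower with a log2 fold change past 1, where 7.07% and 3.61% of all tested genes were. With TGFb the counts were 7 and 1 (3.73% and 1.33% of all tested genes), and with IL4 they were 3 and 1 (0.763% and 0.26%). The 3 comparisons share the untreated libraries. Of the 36 genes, 7 met the filter on low values only with the libraries of 1 group: Cnr2 and Gpr160 with IL4, Cxcr2 and Gpr56 with TGFb, Ccr1 with untreated, Gpr158 with IL4 or untreated, and Gpr34 with TGFb or untreated. Those that needed the group in which they were high had to differ to be tested.

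The scaling of the libraries bears on the LPS+IFNg split. When each library was rescaled to the same total, the median of all genes moved by -0.12 and 5 receptor genes were called higher and 22 lower, and after quantile normalization the counts were 5 and 21. For all genes, those scalings left 35.5% and 38.8% of the LPS+IFNg calls higher in place of 50%, 34% and 47.4% of the IL4 calls in place of 57.4%, and 37.8% and 45.1% of the TGFb calls in place of 50.8%. The IL4 count rests on single libraries: it was 4, 6 and 7 without IL4 replicates 1, 2 and 3, and 18 without LPS+IFNg replicate 3, which enters the shared estimate of the spread. The orphan receptor gene Gpr19 was called with none of the 3 stimuli.

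**Figure D1:**
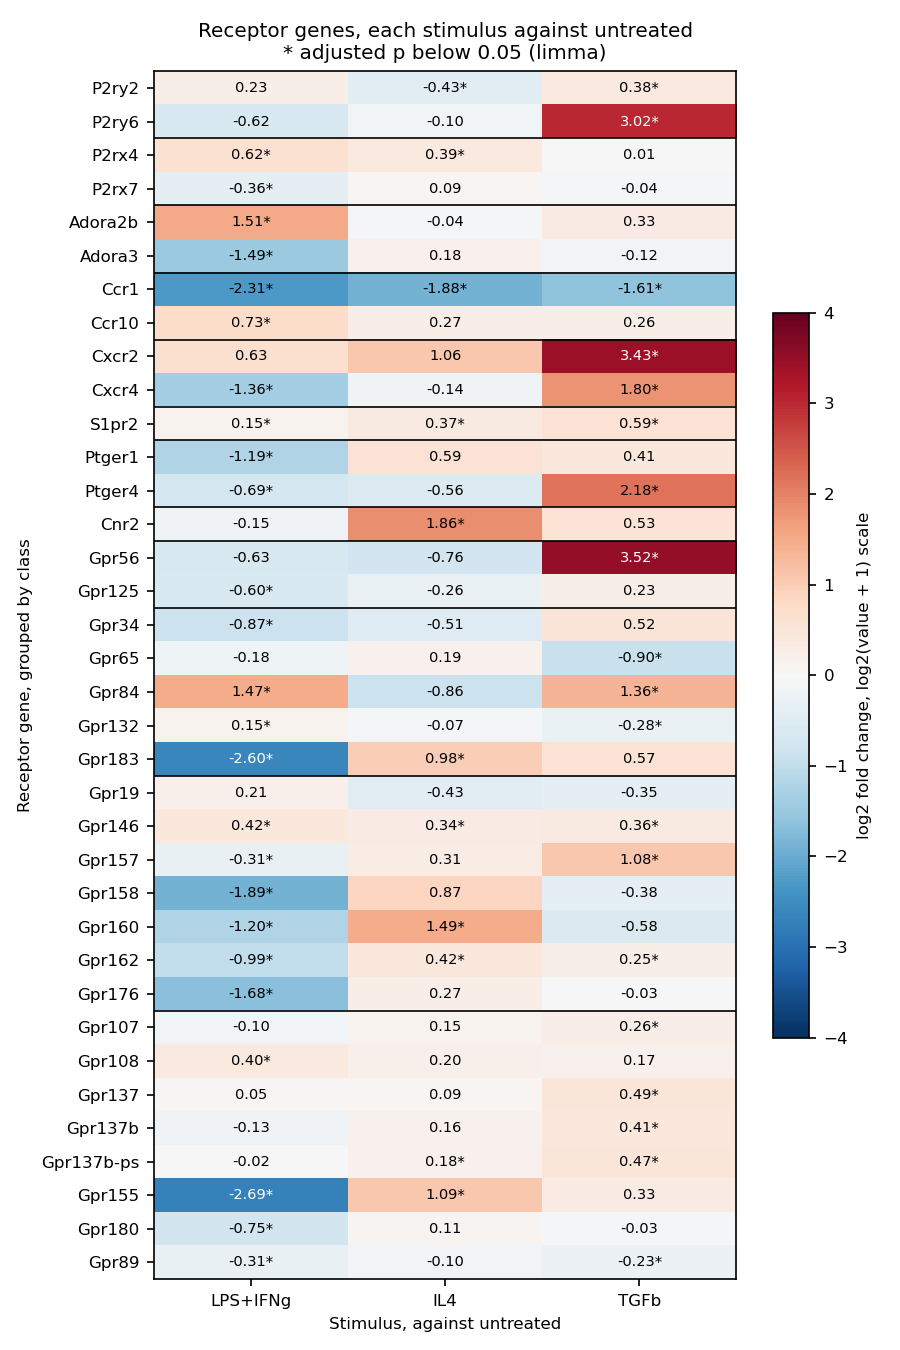
Log2 fold change of each of the 36 receptor genes (rows, with lines between classes) for LPS+IFNg, IL4 and TGFb against untreated cells (columns), on the log2(value + 1) scale, with an asterisk where the limma adjusted p was below 0.05. The deepest colours are the TGFb increases of Gpr56 (3.52), Cxcr2 (3.43) and P2ry6 (3.02) and the LPS+IFNg decreases of Gpr155 (-2.69) and Gpr183 (-2.60, fitted from libraries at the floor), and Ccr1 is lower in every column.

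**Figure D2:**
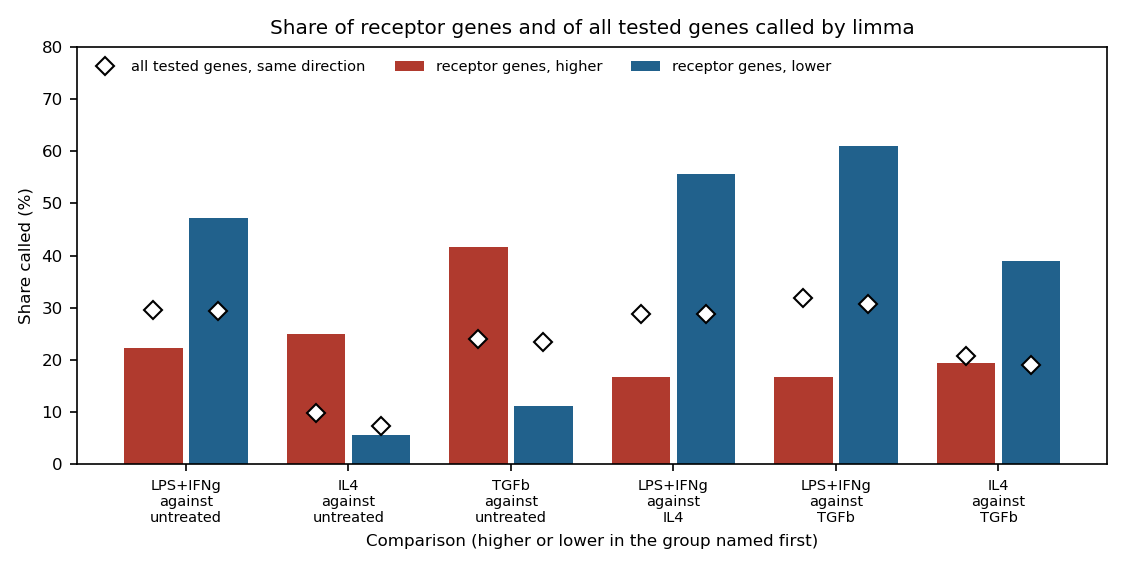
Share of the 36 receptor genes that limma called higher (red bars) or lower (blue bars) in the first-named group of each of the 6 comparisons, with diamonds for the same share over all 11138 tested genes. With LPS+IFNg against untreated 47.2% of the receptor genes are lower beside 29.4% of all genes, and with TGFb 41.7% are higher beside 24.1%.

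Levels can be compared between genes only per length, so the values were divided by the length of the longest annotated transcript in kilobases. In untreated cells the highest per kilobase were Gpr137b-ps (361 ± 21.9, SD, n = 6), Gpr132 (297 ± 7.75), Gpr137b (271 ± 10.2), Gpr108 (229 ± 17.3), P2rx4 (195 ± 13.8) and Cxcr4 (192 ± 20.6). The means of the last pair lay within each other's spread. The lowest per kilobase were Cxcr2 (1.40 ± 0.799), Gpr158 (0.972 ± 0.512) and Cnr2 (0.941 ± 0.529), which lay within each other's spread and rested on 24 to 39 reads over the 6 untreated libraries. Cxcr4 ranked 1 of the 36 genes per kilobase with TGFb and 14 with LPS+IFNg, against 6 in untreated cells. Gpr84 ranked 6 with LPS+IFNg, 22 with IL4 and 15 with TGFb, against 20 in untreated cells.

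**Figure D3:**
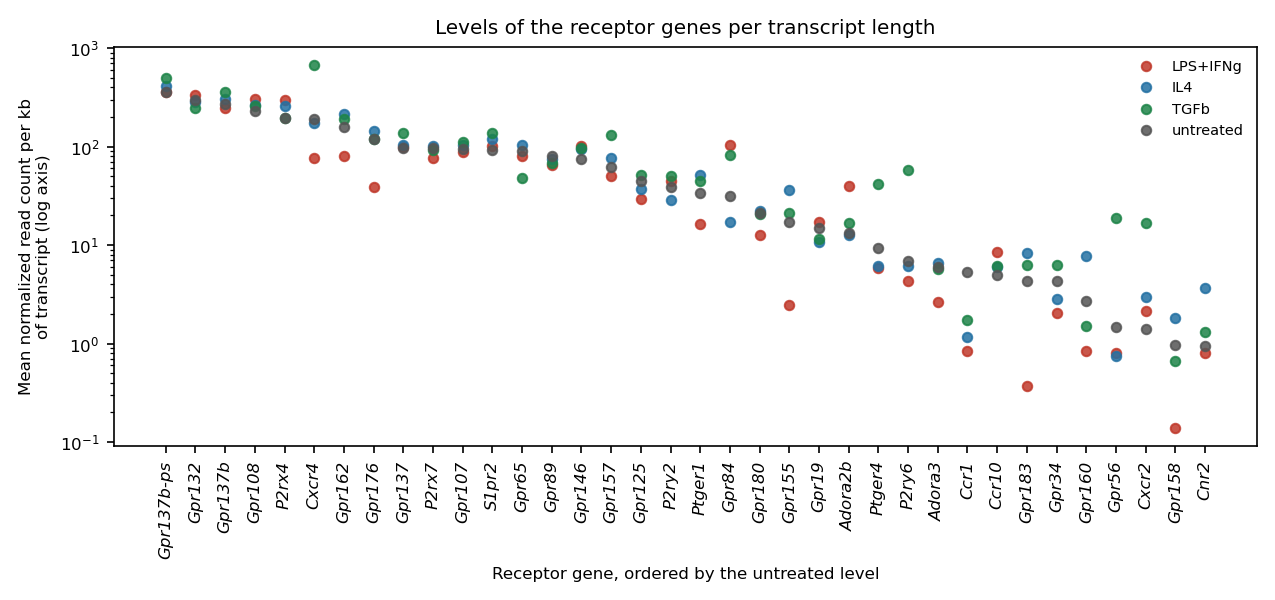
Mean normalized read count per kilobase of the longest transcript (log axis) of each receptor gene with LPS+IFNg, IL4, TGFb and in untreated cells, with the genes in the order of their untreated level from left to right. The untreated levels run between 361 for Gpr137b-ps and 0.941 for Cnr2, and the groups lie furthest apart among genes of middle and low level, such as Gpr155, Ptger4, P2ry6 and Gpr56; the LPS+IFNg points of Gpr183 and Gpr158 stand at the floor.

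Of the P2Y receptors, which answer extracellular nucleotides through G proteins, both rose with TGFb. P2ry6 (chromosome 7, 100937630 to 100974649; this and all later gene positions are on GRCm38), the UDP receptor known for driving phagocytosis in microglia, had 125, 102 and 107 with TGFb, 7.75, 5.16 and 12.4 with LPS+IFNg and 14.9, 9.88 and 11.3 with IL4, against 7.19, 14.7 and 17 in untreated cells. The TGFb libraries lay far above the rest and the other stimuli overlapped the untreated range. Its log2 fold change with TGFb was 3.02 (SE 0.28, limma adjusted p = 7.06e-08). With LPS+IFNg it was -0.62 (adjusted p = 0.0658), and -0.91 with a limma adjusted p of 0.0151 without replicate 3 of that group. It was also called lower with either rescaling and without untreated replicate 2 (adjusted p of 0.0167 to 0.027).

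P2ry2 (chromosome 7, 100996568 to 101012866), the receptor for ATP and UTP and the neighbour of P2ry6 on the same strand, moved by less. Its means were 136 ± 10.7 with LPS+IFNg, 86.1 ± 11.8 with IL4 and 151 ± 10.6 with TGFb (SD, n = 3 each), against 116 ± 11.1 in untreated cells (n = 6). It rose with TGFb (log2 fold change 0.38, SE 0.11, limma adjusted p = 0.00801) and fell with IL4 (-0.43, SE 0.11, limma adjusted p = 0.0109), and the IL4 call was lost without IL4 replicate 1 (adjusted p = 0.0634) or 2 (0.0773).

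The P2X channel genes P2rx4 and P2rx7 lie side by side on chromosome 5, and they moved apart with LPS+IFNg. P2rx4, an ATP-gated channel known from activated microglia, had 1099, 1155 and 1253 with LPS+IFNg, 991, 994 and 1005 with IL4 and 755, 775 and 763 with TGFb, against 689, 757 and 834 in untreated cells. All LPS+IFNg and IL4 libraries stood above every untreated library, and the TGFb libraries stood among them. The log2 fold changes were 0.62 with LPS+IFNg (SE 0.06, limma adjusted p = 3.28e-08) and 0.39 with IL4 (SE 0.06, limma adjusted p = 0.000102). P2rx7, the channel that opens at high ATP and is known for releasing interleukin 1 beta, fell with LPS+IFNg to 374 ± 81 (SD, n = 3), against 473 ± 24.2 in untreated cells (n = 6). Its log2 fold change was -0.36 (SE 0.10, limma adjusted p = 0.00341) and -0.17 without LPS+IFNg replicate 3, whose value was 281.

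Adenosine, which forms as extracellular ATP is broken down, is read by the receptor genes Adora2b and Adora3, and these moved in opposite directions with LPS+IFNg. Adora2b (chromosome 11, 62248984 to 62266453), a low-affinity receptor that raises cyclic AMP, had 64.3, 53.3 and 100.5 with LPS+IFNg, 19.7, 22.6 and 28.0 with IL4 and 26.1, 32.0 and 33.8 with TGFb, against 17.3, 25.1 and 30.9 in untreated cells. All LPS+IFNg libraries lay above the untreated range, and the IL4 and TGFb libraries overlapped it. With LPS+IFNg it gave a log2 fold change of 1.51 (SE 0.23, limma adjusted p = 1.28e-05), and of 1.25 without LPS+IFNg replicate 3.

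Adora3, a receptor that lowers cyclic AMP, had 3.10, 1 and 14.7 with LPS+IFNg, 17.3, 9.88 and 19.9 with IL4 and 6.97, 23.5 and 10.4 with TGFb, against 6.47, 13.1 and 22.4 in untreated cells. LPS+IFNg replicate 3 lay inside the untreated range and the other LPS+IFNg libraries lay below it. Its log2 fold change with LPS+IFNg was -1.49 (SE 0.51, limma adjusted p = 0.017), -2.31 without replicate 3 and -0.83 without replicate 2 (adjusted p = 0.174), and edgeR gave an adjusted p of 0.0699. A gene on the same strand, Tmigd3, shares 20.9% of its exon bases, so some of its reads may belong to that gene.

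**Figure D4:**
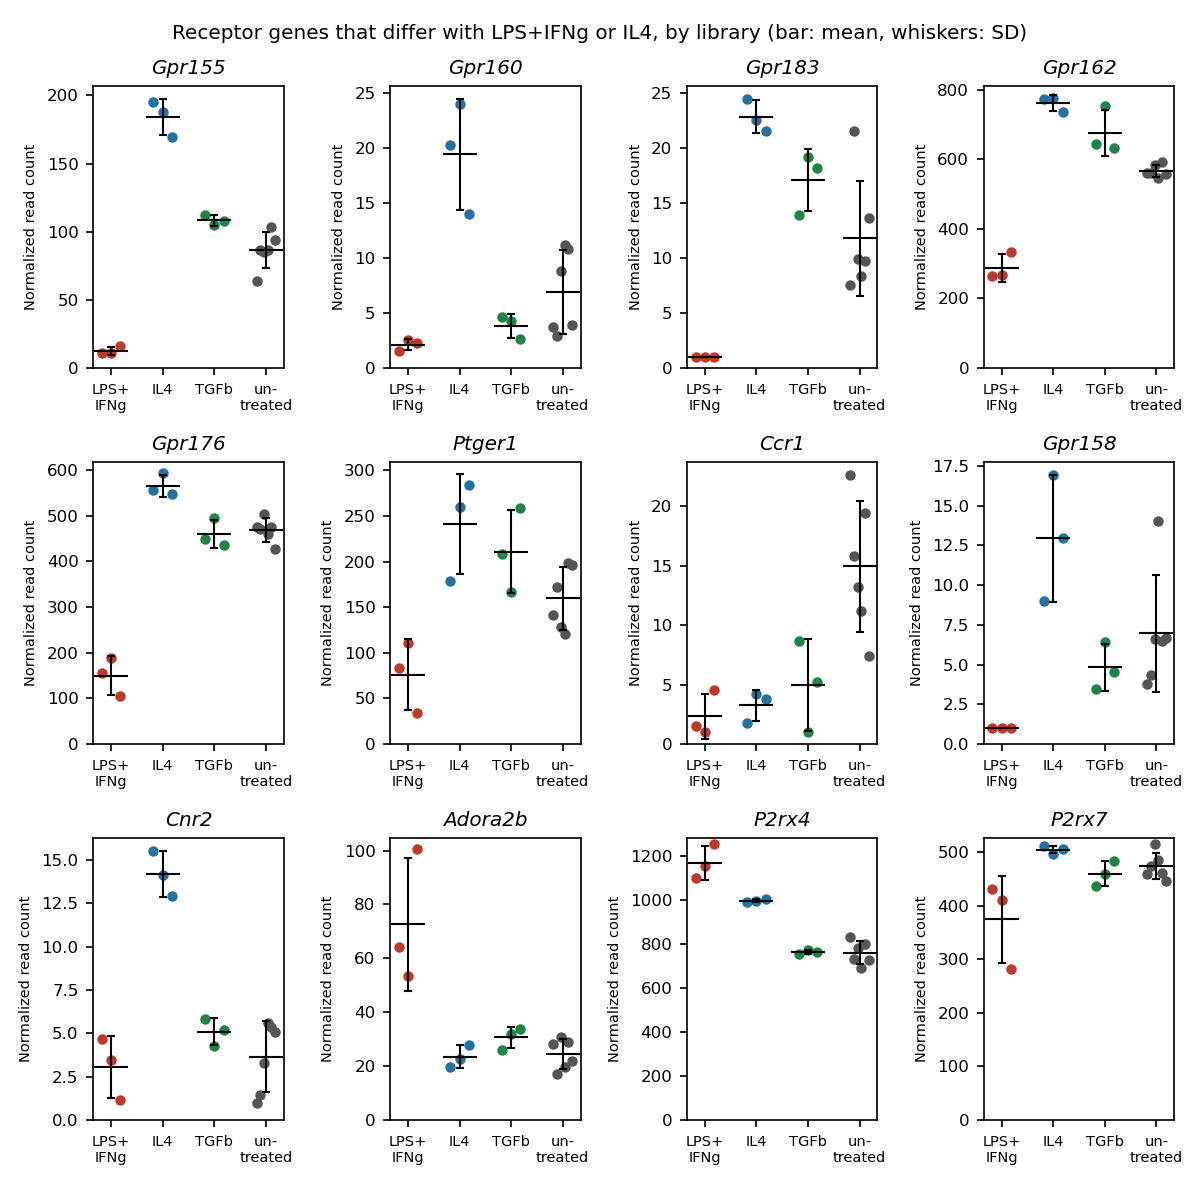
Normalized read count of 12 receptor genes in each library (points), with the mean (bar) and SD (whiskers) of LPS+IFNg, IL4, TGFb (n = 3 each) and untreated (n = 6) libraries, each panel on its own axis. Gpr155, Gpr176 and Gpr162 have every LPS+IFNg library below every untreated one, Gpr183 and Gpr158 sit at the floor of 1 with LPS+IFNg, and Cnr2 and Gpr160 have their highest values with IL4.

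Of the chemokine receptors, which steer cell movement, Ccr1 fell with all 3 stimuli, Cxcr2 rose with TGFb, and Cxcr4 fell with LPS+IFNg and rose with TGFb. Cxcr4 (chromosome 1, 128588199 to 128592293), the receptor of Cxcl12, had 127, 111 and 172 with LPS+IFNg, 308, 305 and 328 with IL4 and 1205, 1244 and 1179 with TGFb, against 291, 344 and 398 in untreated cells. No TGFb or LPS+IFNg library overlapped the untreated range, and all IL4 libraries lay inside it. Its log2 fold change was -1.36 with LPS+IFNg (SE 0.11, limma adjusted p = 3.43e-09) and 1.80 with TGFb (SE 0.11, limma adjusted p = 1.97e-10). LPS+IFNg set directly against TGFb gave -3.16 (SE 0.12, limma adjusted p = 1.03e-13).

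Cxcr2 (chromosome 1, 74153989 to 74161246), a receptor best known from neutrophils and bound by Cxcl2, had 56.3, 38.4 and 57.9 with TGFb, 8.52, 4.30 and 6.77 with LPS+IFNg and 9.56, 11.3 and 6.46 with IL4, against 1, 4.31 and 7.54 in untreated cells. Each TGFb library lay above every library of the other groups. With TGFb it gave a log2 fold change of 3.43 (SE 0.39, limma adjusted p = 8.32e-07), from 204 TGFb reads and 29 untreated reads. Cxcr2 met the filter on low values only with the TGFb libraries, so it entered the test through its high group. Of 7 markers listed for neutrophils and mast cells, 1 was in the table, S100a8, with 17.1 to 24.4 in the TGFb libraries, 10.2 to 26.3 in the LPS+IFNg libraries and 1 to 2.82 in the IL4 libraries, against 5.52 to 9.43 in untreated libraries. Its part in the Cxcr2 result was not tested.

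Ccr1 (chromosome 9, 123962124 to 123968692), a receptor of Ccl3 and Ccl5, had 1.55, 1 and 4.52 with LPS+IFNg, 1.79, 4.24 and 3.77 with IL4 and 8.71, 1 and 5.21 with TGFb, against 7.42, 14.5 and 22.6 in untreated cells. The LPS+IFNg and IL4 libraries were all below the untreated range, and 1 TGFb library reached into it. Its reads were few, 6 with LPS+IFNg, 13 with IL4 and 23 with TGFb, against 76 in untreated cells. The log2 fold changes were -2.31 with LPS+IFNg (SE 0.47, limma adjusted p = 0.000333), -1.88 with IL4 (SE 0.47, limma adjusted p = 0.00874) and -1.61 with TGFb (SE 0.47, limma adjusted p = 0.00839). Since Ccr1 met the filter on low values only with the untreated libraries, it entered the test through the group in which it was high. The TGFb call was lost with edgeR (adjusted p = 0.0581) and without TGFb replicate 2 (log2 fold change -0.96, adjusted p = 0.107), and the IL4 call without IL4 replicate 1 (adjusted p = 0.0599).

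Ccr10, a receptor of chemokines made by epithelia, had a mean of 14.5 ± 2.44 with LPS+IFNg (SD, n = 3), against 8.56 ± 2.55 in untreated cells (n = 6). Its call (log2 fold change 0.73, SE 0.29, limma adjusted p = 0.0354) was lost when any 1 of the 3 LPS+IFNg libraries was left out (adjusted p = 0.0846, 0.154 and 0.0554), without untreated replicate 2 or 5, with either rescaling and with DESeq2 (adjusted p = 0.111).

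**Figure D5:**
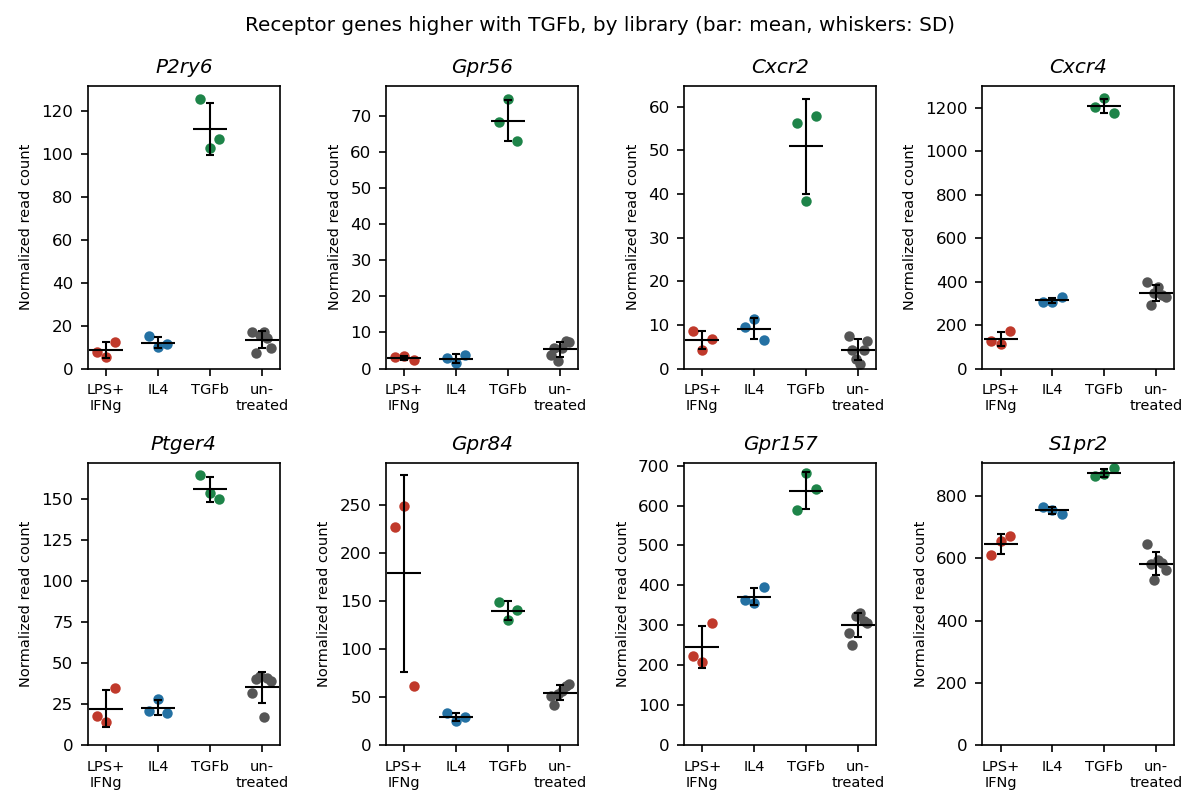
Normalized read count of 8 receptor genes that were called higher with TGFb, in each library (points), with the mean (bar) and SD (whiskers) of LPS+IFNg, IL4, TGFb (n = 3 each) and untreated (n = 6) libraries, each panel on its own axis. In the panels of P2ry6, Gpr56, Cxcr2, Cxcr4 and Ptger4 the 3 TGFb libraries lie well above all others, while for Gpr84 LPS+IFNg replicates 1 and 2 (227 and 248) lie above TGFb and replicate 3 (61.0) does not.

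Among the receptors of lipid mediators, the prostaglandin E2 receptor gene Ptger4 rose with TGFb and Ptger1 fell with LPS+IFNg. Cnr2 rose with IL4, and S1pr2 rose with IL4 and TGFb. The small LPS+IFNg increase of S1pr2 was called, but the call was lost on rescaling, as given below. Ptger4 (chromosome 15, 5206661 to 5244187), which raises cyclic AMP, had 165, 154 and 150.3 with TGFb, 17.8, 13.8 and 35.0 with LPS+IFNg and 20.9, 28.2 and 19.4 with IL4, against 16.8, 39.7 and 41.9 in untreated cells. Every TGFb library was above every other library, and the LPS+IFNg and IL4 libraries overlapped the untreated range. Against untreated cells TGFb gave a log2 fold change of 2.18 (SE 0.28, limma adjusted p = 3.59e-06). With LPS+IFNg it was -0.69 (SE 0.28, limma adjusted p = 0.0409), a call lost when any of 10 single libraries was left out (adjusted p of 0.0504 to 0.247), and kept at 0.00181 without LPS+IFNg replicate 3. With IL4 it was -0.56 (limma adjusted p = 0.192), and edgeR gave -0.78 with an adjusted p of 0.0268. A pseudogene on the opposite strand shares 15.3% of its exon bases.

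Ptger1, which raises calcium, had 82.9, 111 and 33.9 with LPS+IFNg, 179, 259.8 and 284 with IL4 and 208, 166 and 258 with TGFb, against 120.5, 157 and 198 in untreated cells. The LPS+IFNg libraries all lay below the untreated range, with replicate 3 the lowest. Its fall came to a log2 fold change of -1.19 (SE 0.27, limma adjusted p = 0.000921), and -0.70 without replicate 3 (limma adjusted p = 0.00416). The values of Ptger1 are uncertain as far as reads from the opposite strand were counted, since the use of strand in counting is not given in the sources used here.

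S1pr2, a receptor that couples sphingosine 1-phosphate to cell contraction and reduced migration, had means of 646 ± 31.6 with LPS+IFNg, 755 ± 10.9 with IL4 and 875 ± 13.8 with TGFb (SD, n = 3 each), against 583 ± 37.4 in untreated cells (n = 6). The log2 fold changes were 0.15 (limma adjusted p = 0.0291), 0.37 (0.000109) and 0.59 (8.46e-08). The LPS+IFNg call was lost when libraries were rescaled to the same total (0.02, adjusted p = 0.737) or quantile normalized, without LPS+IFNg replicate 2 or 3 and without untreated replicate 3 or 6, while the IL4 and TGFb calls were lost in none of these.

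Cnr2 (chromosome 4, 135895394 to 135920207), the cannabinoid receptor of immune cells, had 4.65, 3.44 and 1.13 with LPS+IFNg, 15.5, 14.1 and 12.9 with IL4 and 5.81, 4.27 and 5.21 with TGFb, against 1, 4.19 and 5.6 in untreated cells. Every IL4 library lay above every other library. The log2 fold change with IL4 was 1.86 (SE 0.42, limma adjusted p = 0.00431), from 60 IL4 reads and 24 untreated reads. Since Cnr2 reached the minimum value of 10 in the IL4 libraries alone, it entered the test through the group in which it was high, and leaving out an IL4 library left it untested.

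The adhesion receptors have long extracellular parts that bind matrix and neighbouring cells. Gpr56 (now Adgrg1, chromosome 8, 94974751 to 95014217), known from oligodendrocyte precursors and from microglia, had 68.5, 74.7 and 63.1 with TGFb, 3.10, 3.44 and 2.26 with LPS+IFNg and 2.99, 1.41 and 3.77 with IL4, against 2.21, 5.68 and 7.55 in untreated cells. It reached 10 in the TGFb libraries and in no other, so it too entered the test through its high group. Its log2 fold change with TGFb was 3.52 (SE 0.33, limma adjusted p = 7.62e-08), the largest fitted TGFb value of the 36 genes. Gpr125 (now Adgra3) fell with LPS+IFNg to 131 ± 17.1 (SD, n = 3), against 199 ± 26.5 in untreated cells (n = 6), a log2 fold change of -0.60 (SE 0.12, limma adjusted p = 0.000273).

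The TGFb increases of Gpr56 and P2ry6 came with those of other genes by which microglia are recognised. Of 14 tested microglia and macrophage markers, among which Gpr34 is itself 1 of the receptor genes, 9 were higher and 0 lower with TGFb, including Olfml3 (log2 fold change 6.90), Cx3cr1 (3.70) and Tmem119 (3.37), of which Olfml3 and Cx3cr1 met the filter on low values with the TGFb libraries alone, and their summed level was 32694 to 34451 in the TGFb libraries, against 23011 to 24816 in untreated libraries. With LPS+IFNg 3 were higher and 5 lower, including Aif1 (3.14) and Tmem119 (-1.59). With IL4 5 were higher and 1 lower, which was Tmem119 (-1.45). Over all tested genes, 24.1% were higher and 23.4% lower with TGFb, 29.5% and 29.4% with LPS+IFNg, and 9.89% and 7.33% with IL4. The marker counts with LPS+IFNg are near those shares. Of 7 markers of the oligodendrocyte lineage 3 were in the table, with a summed level of 55.7 to 62.5 in the TGFb libraries, against 26.5 to 46.0 in untreated libraries, and 1 of the 3, Cspg4, was higher with TGFb (log2 fold change 3.19, limma adjusted p = 2.37e-06), again having met the filter through the TGFb libraries alone. Pdgfra, Olig1, Olig2 and Sox10 were not analysed here. The part of these genes in the receptor results was not tested.

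Of the Gpr receptors with a known ligand, Gpr84 rose with LPS+IFNg and TGFb and Gpr183 fell with LPS+IFNg and rose with IL4. Gpr84 (chromosome 15, 103308235 to 103310612), a receptor for fatty acids of medium length, had 227, 248 and 61.0 with LPS+IFNg, 33.5, 25.4 and 29.6 with IL4 and 149, 130.2 and 141 with TGFb, against 41.7, 54.5 and 63.3 in untreated cells. LPS+IFNg replicate 3 lay inside the untreated range, the other LPS+IFNg libraries and all TGFb libraries lay above it, and all IL4 libraries lay below it. The log2 fold change with LPS+IFNg was 1.47 (SE 0.30, limma adjusted p = 0.000322), and 2.12 without replicate 3 (limma adjusted p = 1.17e-10), whose omission moved the mean to 238 in place of 179. With TGFb it was 1.36 (SE 0.30, limma adjusted p = 0.000975). With IL4 it was -0.86 (limma adjusted p = 0.0546), and it was called lower when LPS+IFNg replicate 1, 2 or 3, which enter the shared spread, was left out (adjusted p = 0.0402, 0.029 and 6.59e-05). An antisense gene, Gm49482, covers 39.5% of its exon bases.

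Gpr183 (chromosome 14, 121952551 to 121965195), an oxysterol receptor that positions immune cells, was at the floor of 1 in all 3 LPS+IFNg libraries and had 24.5, 22.6 and 21.5 with IL4 and 13.9, 19.2 and 18.2 with TGFb, against 7.54, 9.82 and 21.6 in untreated cells. The floor stands for 0 reads in LPS+IFNg replicate 3 and for at most 1 read in each of the others. Taken as 0 reads against 75 untreated reads, Gpr183 was at least 14-fold lower with LPS+IFNg when that group is set at 3 counts over its libraries, and taken as 2 reads, the most that the floor leaves room for, it was 21.0-fold lower for its depth (95% counting interval 5.6 to 176). Counting error is all that these bounds and intervals cover. The limma adjusted p was 3.16e-07. With IL4 the log2 fold change was 0.98 (SE 0.29, limma adjusted p = 0.0235), and this call was lost when any 1 of the 3 IL4 libraries was left out (adjusted p of 0.0644 to 0.0904).

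Gpr34, a lysophosphatidylserine receptor by which microglia are recognised, had 3.87, 4.30 and 4.52 with LPS+IFNg, 5.38, 4.24 and 8.08 with IL4 and 14.5, 8.54 and 16.3 with TGFb, against 5.52, 8.52 and 15.8 in untreated cells. The LPS+IFNg libraries lay below the untreated range, and the IL4 and TGFb libraries overlapped it. The log2 fold change with LPS+IFNg was -0.87 (SE 0.32, limma adjusted p = 0.0258), a call lost when any 1 of the LPS+IFNg libraries was left out (adjusted p of 0.0604 to 0.0894). With TGFb it was 0.52 (limma adjusted p = 0.194), and edgeR gave 0.78 with an adjusted p of 0.0389.

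The acid-sensing receptor genes Gpr65 and Gpr132 were lower with TGFb. Gpr65 fell to 100.3 ± 14 with TGFb (SD, n = 3), against 188 ± 24.2 in untreated cells (n = 6), a log2 fold change of -0.90 (SE 0.12, limma adjusted p = 5.27e-06). Gpr132, which also binds oxidised lipids, fell to 608 ± 16.4 with TGFb, against 737 ± 19.2 in untreated cells (log2 fold change -0.28, limma adjusted p = 0.000255). With LPS+IFNg Gpr132 averaged 817 ± 68.7 (log2 fold change 0.15, limma adjusted p = 0.0227), a call lost when libraries were rescaled to the same total (0.02, adjusted p = 0.797) and without LPS+IFNg replicate 1 or 2 (adjusted p = 0.0796 and 0.186). Gpr65 had a log2 fold change of -0.18 with LPS+IFNg, and -0.30 with a limma adjusted p of 0.042 without replicate 3. The antisense gene Gm47566 covers 24.7% of the exon bases of Gpr65.

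The 7 orphan receptors, whose ligands are unknown or disputed, gave 1 higher and 5 lower calls with LPS+IFNg, 3 higher and 0 lower with IL4, and 3 higher and 0 lower with TGFb. Over all tested genes 29.5% were higher and 29.4% lower with LPS+IFNg, 9.89% and 7.33% with IL4, and 24.1% and 23.4% with TGFb. Gpr176 (chromosome 2, 118277110 to 118373419), known from the circadian clock of the brain, had 157, 188 and 105 with LPS+IFNg, 556, 593 and 548 with IL4 and 449, 495 and 435 with TGFb, against 427, 472 and 504 in untreated cells. All LPS+IFNg libraries lay far below the untreated range, and its log2 fold change was -1.68 (SE 0.12, limma adjusted p = 5.8e-10). Gpr162 fell with LPS+IFNg to 288 ± 39.3 and rose with IL4 to 761 ± 22.9 and with TGFb to 676 ± 67.4 (SD, n = 3 each), against 567 ± 17.4 in untreated cells (n = 6). The log2 fold changes of Gpr162 were -0.99, 0.42 and 0.25 (limma adjusted p of 1.11e-09, 0.000423 and 0.00887), the last of which was lost without TGFb replicate 2 (adjusted p = 0.0965).

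Gpr160 had 1.55, 2.58 and 2.26 with LPS+IFNg, 20.3, 24 and 14 with IL4 and 4.64, 4.27 and 2.60 with TGFb, against 2.88, 6.37 and 11.2 in untreated cells. Every IL4 library lay above and every LPS+IFNg library below the untreated range. The log2 fold change was 1.49 with IL4 (SE 0.39, limma adjusted p = 0.0115), lost without IL4 replicate 1 (adjusted p = 0.051) or 2 (0.0825), and -1.20 with LPS+IFNg (SE 0.39, limma adjusted p = 0.013), lost without LPS+IFNg replicate 1 (adjusted p = 0.0668). Gpr160 met the filter on low values only with the IL4 libraries, so it entered the test through the group in which it was high. Gpr157 had 589, 681 and 642 with TGFb, 222, 207 and 306 with LPS+IFNg and 363, 356 and 396 with IL4, against 252, 309 and 331 in untreated cells. The TGFb libraries were above all others, and LPS+IFNg replicate 3 lay inside the untreated range. The log2 fold change was 1.08 with TGFb (SE 0.11, limma adjusted p = 1.34e-07) and -0.31 with LPS+IFNg (limma adjusted p = 0.0183), which was lost without LPS+IFNg replicate 1 (adjusted p = 0.092) or 2 (0.144).

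Gpr158, a class C receptor known mainly from neurons, was at the floor of 1 in all 3 LPS+IFNg libraries, against 3.77, 6.55 and 14 in untreated cells, which rested on 39 reads. Taken as 0 reads it was at least 7.27-fold lower with LPS+IFNg when that group is set at 3 counts over its libraries, and taken as 2 reads it was 10.9-fold lower for its depth (95% counting interval 2.82 to 93.2). Gpr146 averaged 434 ± 115 with LPS+IFNg, 402 ± 9.19 with IL4 and 408 ± 11.2 with TGFb (SD, n = 3 each), against 317 ± 16.7 in untreated cells (n = 6), and was called higher with each stimulus (log2 fold changes 0.42, 0.34 and 0.36). Its IL4 call was lost when any 1 of the 3 IL4 libraries was left out (adjusted p of 0.0599 to 0.0948). LPS+IFNg replicate 3 (567) stood above the other LPS+IFNg libraries (363 and 371). Without that replicate the LPS+IFNg log2 fold change of Gpr146 was 0.21 (limma adjusted p = 0.0115). Gpr19 averaged 35.3 ± 2.89, 22.5 ± 3.59 and 24.1 ± 5.42 with LPS+IFNg, IL4 and TGFb, against 30.8 ± 5.21 in untreated cells, with limma adjusted p of 0.368, 0.141 and 0.147.

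The 8 Gpr-named genes that are not classical surface receptors gave 1 higher and 3 lower calls with LPS+IFNg, 2 higher and 0 lower with IL4, and 4 higher and 1 lower with TGFb. Called in either direction were 4 of 8 with LPS+IFNg and 5 of 8 with TGFb, near the 58.9% and 47.5% of all tested genes. Gpr155 (chromosome 2, 73341506 to 73386572), known as a cholesterol sensor of the lysosome, had 10.8, 11.2 and 15.8 with LPS+IFNg, 195, 188 and 169.7 with IL4 and 112, 105 and 108 with TGFb, against 64.1, 86.6 and 104 in untreated cells. The LPS+IFNg libraries lay far below the untreated range and those of IL4 and TGFb above it. Its log2 fold change was -2.69 with LPS+IFNg (SE 0.15, limma adjusted p = 1.47e-11), the lowest fitted value of the 36 genes, and 1.09 with IL4 (SE 0.15, limma adjusted p = 3.99e-05). With TGFb it was 0.33 (limma adjusted p = 0.0734), and 0.0368 was the adjusted p with edgeR.

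The lysosomal Gpr137 family rose with TGFb by small amounts. Its members Gpr137, Gpr137b and Gpr137b-ps averaged 252 ± 16, 1312 ± 118 and 1501 ± 41.9 with TGFb (SD, n = 3), against 179 ± 7.32, 984 ± 37.2 and 1083 ± 65.5 in untreated cells (n = 6), with log2 fold changes of 0.49, 0.41 and 0.47 (limma adjusted p of 6.14e-05, 9.09e-06 and 4.19e-07). Gpr137b-ps is annotated as a transcribed pseudogene of Gpr137b, so the division of reads between them is uncertain. The IL4 call of Gpr137b-ps (log2 fold change 0.18) was lost with either rescaling and without IL4 replicate 1 or 3. The Golgi protein genes Gpr107, Gpr108 and Gpr89 had called log2 fold changes of 0.26 (Gpr107 with TGFb), 0.40 (Gpr108 with LPS+IFNg), -0.31 (Gpr89 with LPS+IFNg) and -0.23 (Gpr89 with TGFb, lost without TGFb replicate 2, adjusted p = 0.0553, and when the 3 shallowest libraries were dropped, 0.104). Without LPS+IFNg replicate 3 the LPS+IFNg log2 fold change of Gpr108 was 0.26 (limma adjusted p = 0.00164). On the opposite strand, Pdzk1 covers 24.9% of the exon bases of Gpr89 and Bad covers 15.4% of those of Gpr137. Gpr180 fell with LPS+IFNg to 23.8 ± 9.75 (SD, n = 3), against 39.9 ± 10.8 in untreated cells (n = 6), a call (limma adjusted p = 0.016) that was lost without LPS+IFNg replicate 2 (0.116).

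Promoter windows are printed for 6 genes that were called lower with LPS+IFNg and higher with IL4 or TGFb but not with both. They are Cxcr4, Gpr157 and Ptger4 with TGFb and Gpr155, Gpr160 and Gpr183 with IL4. Gpr162, called lower with LPS+IFNg and higher with both, is not printed. These comparisons share the untreated libraries, and Ptger4, Gpr157, Gpr183 and Gpr160 lose a call that placed them here when certain single libraries are left out, as given above. The windows run over 250 bases before and 50 after the start of the gene, 5′ to 3′ on the gene's strand, from RefSeq on GRCm38.p6, and each match to an NF-kB-type motif (GGGNNNNNCC, either strand, overlaps allowed) is in capitals.

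Cxcr4 (chr1:128592250-128592549, - strand): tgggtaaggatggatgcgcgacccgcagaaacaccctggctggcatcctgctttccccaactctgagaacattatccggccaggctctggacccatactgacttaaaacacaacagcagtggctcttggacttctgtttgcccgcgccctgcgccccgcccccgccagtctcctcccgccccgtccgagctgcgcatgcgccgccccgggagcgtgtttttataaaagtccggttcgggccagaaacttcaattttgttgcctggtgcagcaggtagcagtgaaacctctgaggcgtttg
Gpr157 (chr4:150087253-150087552, + strand): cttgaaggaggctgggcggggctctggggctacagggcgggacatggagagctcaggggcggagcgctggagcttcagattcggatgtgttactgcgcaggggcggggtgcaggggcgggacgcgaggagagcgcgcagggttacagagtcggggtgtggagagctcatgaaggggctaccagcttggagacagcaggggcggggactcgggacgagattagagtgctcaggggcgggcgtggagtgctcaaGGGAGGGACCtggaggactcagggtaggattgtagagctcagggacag
Ptger4 (chr15:5244138-5244437, - strand): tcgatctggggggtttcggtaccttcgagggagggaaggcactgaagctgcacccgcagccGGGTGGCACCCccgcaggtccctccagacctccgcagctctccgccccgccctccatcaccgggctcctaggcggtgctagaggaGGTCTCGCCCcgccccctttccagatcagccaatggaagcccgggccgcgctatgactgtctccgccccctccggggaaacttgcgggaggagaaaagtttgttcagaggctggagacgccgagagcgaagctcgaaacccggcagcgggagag
Gpr155 (chr2:73386431-73386730, - strand): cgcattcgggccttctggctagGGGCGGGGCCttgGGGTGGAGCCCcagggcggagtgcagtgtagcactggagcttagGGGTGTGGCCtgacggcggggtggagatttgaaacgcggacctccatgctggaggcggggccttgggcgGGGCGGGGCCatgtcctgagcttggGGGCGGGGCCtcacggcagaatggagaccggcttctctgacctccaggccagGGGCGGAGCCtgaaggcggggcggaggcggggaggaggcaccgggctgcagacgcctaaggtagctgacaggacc
Gpr160 (chr3:30855700-30855999, + strand): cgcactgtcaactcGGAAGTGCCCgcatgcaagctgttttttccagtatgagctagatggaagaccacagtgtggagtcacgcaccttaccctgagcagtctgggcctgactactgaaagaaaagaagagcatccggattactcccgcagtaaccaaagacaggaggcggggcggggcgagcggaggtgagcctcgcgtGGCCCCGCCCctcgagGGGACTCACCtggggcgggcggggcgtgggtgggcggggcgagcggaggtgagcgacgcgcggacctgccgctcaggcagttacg
Gpr183 (chr14:121965144-121965443, - strand): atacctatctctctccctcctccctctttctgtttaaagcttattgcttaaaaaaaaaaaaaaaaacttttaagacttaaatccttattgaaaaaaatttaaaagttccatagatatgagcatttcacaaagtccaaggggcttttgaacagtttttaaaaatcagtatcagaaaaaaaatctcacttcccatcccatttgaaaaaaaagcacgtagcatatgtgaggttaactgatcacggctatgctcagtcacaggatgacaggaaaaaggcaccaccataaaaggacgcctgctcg

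The motif GGGNNNNNCC matched 0 times in the Cxcr4 window, 1 time in Gpr157, 3 times in Ptger4, 7 times in Gpr155, 3 times in Gpr160 and 0 times in Gpr183. It is loose and rich in G and C, and 50.8% of all 32851 promoter windows held it, as did windows of 20 of the 29 receptor genes that had one. The SMAD-binding motif GTCTG matched 1 time each in Ptger4, Gpr155 and Gpr160 and 0 times in the other 3 windows, and 49.6% of all windows held it. The STAT-type motifs TTCNNNGAA and TTCNNNNGAA and the interferon-type motif TTTCNNTTTC (8.3%, 6.95% and 3.44% of all windows) matched 0 times in these 6 windows. Such matches describe letters in these windows only.

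When the stimuli were set against each other, most called receptor genes were lower with LPS+IFNg. Against IL4, limma called 26 of the 36 genes, 6 higher and 20 lower with LPS+IFNg (72.2%, against 57.7% of all tested genes, 28.8% in each direction). Against TGFb it called 28, 6 higher and 22 lower with LPS+IFNg (77.8%, against 62.6% of all tested genes, 31.9% higher and 30.8% lower). Between IL4 and TGFb it called 21, 7 higher and 14 lower with IL4 (58.3%, against 39.7% of all tested genes, 20.7% higher and 19% lower). The median log2 fold change of the receptor genes in these comparisons was -0.35, -0.65 and -0.05, where the medians over all tested genes were 0.003, 0.005 and 0.007. Past a log2 fold change of 1, LPS+IFNg against IL4 had 2 receptor genes higher and 10 lower, where 7.89% and 5.03% of all tested genes were. LPS+IFNg against TGFb had 1 higher and 14 lower (8.33% and 7.97% of all tested genes), and IL4 against TGFb had 4 higher and 7 lower (1.8% and 3.93%).

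LPS+IFNg and IL4 differed in Gpr155 (log2 fold change -3.78, SE 0.17, limma adjusted p = 9.91e-13) and in Gpr183, which was at least 25.5-fold lower with LPS+IFNg on the same bound. In the other direction Gpr84 was 2.33 higher (SE 0.34, limma adjusted p = 1.14e-05) and Adora2b 1.56 higher (SE 0.26, limma adjusted p = 4.76e-05). LPS+IFNg and TGFb differed in Gpr183, at least 18.2-fold lower with LPS+IFNg on that bound, in Gpr56 (-4.16, SE 0.38, limma adjusted p = 2.18e-08) and in P2ry6 (-3.64, SE 0.33, limma adjusted p = 1.46e-08), while Gpr84, called with each of these stimuli, gave 0.11 between them (SE 0.34, limma adjusted p = 0.791), and 0.76 (limma adjusted p = 0.00091) without LPS+IFNg replicate 3. IL4 and TGFb differed in Gpr56 (-4.28), P2ry6 (-3.12), Ptger4 (-2.74) and Gpr84 (-2.21), and Gpr160 (2.07) was higher with IL4. Cnr2 gave 1.32 (limma adjusted p = 0.0369) between IL4 and TGFb, a call lost when any 1 of the 3 TGFb libraries was left out (adjusted p of 0.0666 to 0.107) and with a pseudocount of 0.5 (0.0527).

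The ligands, the enzymes that make or remove them and the signalling partners were counted from lists. Their counts are to be read against the 29.5% of all tested genes higher and 29.4% lower with LPS+IFNg, 9.89% and 7.33% with IL4, and 24.1% and 23.4% with TGFb. Of 15 chemokine ligands of the CC and CXC receptors 10 were tested: with LPS+IFNg 10 were higher and 0 lower (median log2 fold change 4.60), with IL4 2 were higher and 2 lower, and with TGFb 1 was higher and 4 lower. Of the 10, Ccl5, Cxcl2 and Cxcl9 met the filter on low values only with the LPS+IFNg libraries, where they were high. Ccl5, a ligand of Ccr1, had 3453, 3098 and 6019 with LPS+IFNg, against 2.21, 7.98 and 15.8 in untreated cells, a log2 fold change of 8.87. Ccl2 and Ccl7, which attract monocytes, had log2 fold changes of 4.84 and 3.75 with LPS+IFNg and of 1.31 and 2.77 with IL4, and Ccl2 of -1.09 with TGFb. Ccl3, another Ccr1 ligand, had a log2 fold change of 3.06 with LPS+IFNg and -1.06 with IL4. Cxcl2, a ligand of Cxcr2, gave 5.90 with LPS+IFNg. Replicate 3 decided the means of Cxcl9 (2644, and 126 without it), Cxcl10 (7997, and 3536) and Ccl4 (1841, and 1225). Ccl9, again a Ccr1 ligand, had a log2 fold change of -2.53 with TGFb, Ccl4 gave -1.12, and Cxcl16 gave 2.35 with TGFb and 2.01 with LPS+IFNg. Cxcl12, the ligand of Cxcr4, was not analysed here.

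Of 6 tested genes of prostaglandin E2 synthesis, 3 were higher and 1 lower with LPS+IFNg, 1 higher and 0 lower with IL4, and 2 higher and 2 lower with TGFb, which in either direction is 4 of 6 with LPS+IFNg, beside 58.9% of all tested genes. Ptgs2, the inducible cyclooxygenase, had 288, 242 and 1505 with LPS+IFNg, against 26.4, 43.0 and 49.6 in untreated cells (log2 fold change 3.52, and 2.68 without replicate 3). Ptgs1, the constitutive cyclooxygenase, had a log2 fold change of -2.85 with LPS+IFNg, 1.54 with IL4 and 1.55 with TGFb, and Ptges, the terminal synthase, gave 1.68 with TGFb. Of 7 nucleotide and adenosine turnover genes 2 were higher and 1 lower with LPS+IFNg, 1 higher and 2 lower with IL4, and 2 higher and 3 lower with TGFb. Pnp, which breaks down purine nucleosides, had a mean of 1643 ± 76.7 with LPS+IFNg (n = 3), against 391 ± 16.4 in untreated cells (SD, n = 6).

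Of 5 sphingosine 1-phosphate turnover genes, 1 was higher and 2 lower with LPS+IFNg, 1 higher and 0 lower with IL4, and 3 higher and 1 lower with TGFb. The 3 of 5 called with LPS+IFNg are near the 58.9% of all tested genes. The phosphatase gene Sgpp2 had log2 fold changes of -1.62 with LPS+IFNg and 1.02 with TGFb. Of 5 endocannabinoid turnover genes, 0 were higher and 2 lower with LPS+IFNg, 1 higher and 0 lower with IL4, and 3 higher and 0 lower with TGFb. Daglb, which makes an endocannabinoid, had a log2 fold change of -1.09 with LPS+IFNg, and Abhd6, which breaks it down, 1.25 with TGFb.

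Downstream of the receptors, 5 of 16 tested G protein genes were higher and 6 lower with LPS+IFNg, 3 higher and 0 lower with IL4, and 7 higher and 2 lower with TGFb, and with LPS+IFNg both counts are near the 29.5% and 29.4% of all tested genes. Gna13 had a log2 fold change of 1.81 with LPS+IFNg (1.42 without replicate 3), and Gna15, an alpha subunit of blood cells that couples to many receptors, 2.41 with TGFb. Of 5 receptor kinase and arrestin genes 0 were higher and 2 lower with LPS+IFNg, 2 higher and 1 lower with IL4, and 0 higher and 2 lower with TGFb. Arrb1, which ends receptor signalling, averaged 530 ± 30.5 with LPS+IFNg (n = 3), against 1256 ± 68.1 in untreated cells (SD, n = 6).

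Of 15 tested receptors of the same kind that the name pattern did not take, 6 were higher and 7 lower with LPS+IFNg, 2 higher and 2 lower with IL4, and 4 higher and 4 lower with TGFb. Over all tested genes, 29.5% were higher and 29.4% lower with LPS+IFNg, 9.89% and 7.33% with IL4, and 24.1% and 23.4% with TGFb. The TGFb counts of these receptors are near those shares. The receptors lower with LPS+IFNg past a log2 fold change of 1 were the lysophosphatidic acid receptor genes Lpar6 (-1.85) and Lpar2 (-1.47) and the complement receptor genes C5ar2 (-1.11) and C3ar1 (-1.01). C5ar1 gave -1.27 with IL4 and -1.13 with TGFb. Among the receptors higher with LPS+IFNg, Cmklr1, the chemerin receptor, gave 1.33 and the macrophage adhesion receptor gene Emr1 gave 1.21. Ccrl2, Ptafr and Cmklr1 met the filter on low values only with the LPS+IFNg libraries, and Cx3cr1 and C5ar2 only with the TGFb libraries. Ccrl2, an atypical chemokine receptor, had 428, 405 and 515 with LPS+IFNg, against 2.21, 5.71 and 6.47 in untreated cells (log2 fold change 6.20). Hcar2, a receptor for ketone bodies and niacin, and Ptafr, the receptor for platelet-activating factor, each gave 3.18 with LPS+IFNg, and 2.70 each without replicate 3. Cx3cr1, the receptor of fractalkine, had 37.7, 47.0 and 33.8 with TGFb, against 1, 1.28 and 5.66 in untreated cells (log2 fold change 3.70), and the complement receptor C5ar2 had a log2 fold change of 2.59 with TGFb.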

How the data were processed

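RNA was taken up in TRIZOL and libraries were made with the Illumina TruSeq RNA kit, per the labels' protocols. TopHat2 2.0.3, Partek 6.6, R 3.0.2, DESeq2 and the mm10 build are named, with no role or order, per the submitters' processing notes. Gene annotation, counting rule and use of strand are not given in the sources used here.

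The deposited table holds 1 column for each of the 15 libraries and 11201 genes, and 0 columns were left out. Its values are a signal that the authors normalized: judged from the values, read counts per gene divided by 1 factor per library, with values under 1 set to exactly 1. Dividing by that step gave whole reads, within 0.1 of a read, for at least 99.9% of the values above the floor in every library. Of all genes, 276 had a floored value, and no gene stayed below 11.1 in all libraries, so weakly expressed genes were not analysed here. These recovered reads summed to 2682564 to 18676181 per library.

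Groups were taken from the labels. The main test was limma 3.58.1 (R 4.3.3, empirical Bayes with trend) on log2(value + 1) for the 11138 genes that reached 10 in 3 or more libraries, with all 15 libraries in 1 fit, 6 contrasts and Benjamini-Hochberg adjustment over all tested genes of a contrast at 0.05. All 36 receptor genes passed the filter, 7 of them only with the libraries of 1 group. Count tests on the recovered reads were run as alternatives: edgeR 4.0.16 (quasi-likelihood, TMM) called 6701, 2067 and 5281 genes for LPS+IFNg, IL4 and TGFb against untreated, DESeq2 1.42.0 called 6419, 1963 and 5075, and limma called 6562, 1917 and 5290. Other alternatives were the pseudocount, the filter, rescaling to the same total, quantile normalization, fits on 2 groups, and left-out libraries.

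The receptor genes and the gene lists were chosen with earlier results of these data known. Values per library are given for genes called past a log2 fold change of 1 whose higher group averaged 10 or more, and for Gpr34, Gpr56, P2ry6 and Cnr2. P2rx4 and Gpr158 are shown per library or per range beside these, chosen after their values were seen. List genes are named with a fold change only where called with a log2 value of at least 1, and 1 item is not reported here. Positions of genes come from GENCODE M21 (GRCm38, the same assembly as mm10), and promoter windows are those of RefSeq on GRCm38.p6. Tables and figures were made with Python 3.11.15, pandas 2.3.3, numpy 2.4.6, scipy 1.17.1 and matplotlib 3.10.9.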

Additional observations from a re-analysis of the deposited data

Results flagged for a closer look

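In untreated cells, 1 library stood apart for 1 of the 36 receptor genes. Gpr158 had a value of 14 in untreated replicate 4, and the other 5 untreated libraries had 3.77 to 6.64. The gap to the nearest library was 0.720 of the whole range, above the critical value of 0.625 for 6 libraries. Chance alone gives about 1 such library in 20 groups. The value rests on 5 reads in the library with the fewest reads of all 15.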

How the results depend on the processing

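Over 25 alternatives and 6 comparisons, no tested receptor gene changed direction with a call: 5025 values kept their side of the threshold, 153 lost a call, 72 gained one and 0 reversed. Genes that a setting left untested are not in this tally. Calls that ended that way, such as that of Cnr2 when an IL4 library was left out, are therefore not counted as lost. The IL4 count against untreated, 11 receptor genes, was the one that moved by over 1.5 times with a setting other than a left-out library: it was 7 with a minimum value of 50, which left 25 receptor genes tested, and 18 when the libraries of the 2 groups alone were fitted. With each library left out in turn, the counts ran over 17 to 25 for LPS+IFNg, 4 to 18 for IL4 and 15 to 22 for TGFb against untreated, 20 to 26 for LPS+IFNg against IL4, 22 to 28 for LPS+IFNg against TGFb, and 17 to 23 for IL4 against TGFb. The lowest IL4 counts came without an IL4 library, which leaves fewer samples, and the highest without LPS+IFNg replicate 3. With edgeR on recovered reads the counts against untreated were 24, 13 and 20 for LPS+IFNg, IL4 and TGFb, and with DESeq2 22, 11 and 19. No paired analysis was possible because the replicate numbers were given in the order of the samples and tie no library of a stimulus to an untreated one. Depth limits the genes with few reads: Ccr1, Cnr2, Gpr158 and Gpr160 had 6, 11, 0 (at most 2, given the floor) and 7 recovered reads in all with LPS+IFNg, so small changes in them were not detectable at this depth.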
